A study of Mus musculus with 6 samples.

Results

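The genes described here are regulators of the circadian clock, most of them repressors: the REV-ERB receptor genes Nr1d1 and Nr1d2, the ROR receptor gene Rora, the cryptochrome genes Cry1 and Cry2, the DEC genes Bhlhe40 and Bhlhe41, and the associated clock genes Ciart and Usp2. These 9 genes were taken by symbol from the 15176 genes of the deposited table, and all 9 were present in all 6 libraries and passed the filter on low values. RNA came from iWAT, the inguinal subcutaneous fat pad, and all mice were fed a high-fat diet (HFD). Steap4AKO mice lack the metalloreductase gene Steap4 in adipocytes (2 libraries, replicates 2 and 3), and Steap4f/f mice carry the floxed gene and were the controls (4 libraries, replicates 1, 2, 5 and 6). The study asked how Steap4 bears on mitochondrial dysfunction in fat under HFD. The Cre line behind the adipocyte deletion, the age and sex of the mice, the length of the diet and the time of day at which tissue was taken are not given in the sources used here. Nothing in the labels ties a library to its own mouse, and the p-values then reflect only the spread among these samples, which may be technical.

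In the core loop of the clock the activators CLOCK and BMAL1 (encoded by Arntl) bind E-boxes and drive genes of their own repressors, among them the period and cryptochrome proteins. The secondary loop acts back on Arntl: REV-ERB receptors repress it and ROR receptors activate it through the same response elements, so that Nr1d1 and Arntl transcripts normally peak at opposite times of day. The DEC proteins compete at E-boxes, CIART binds and represses the CLOCK and BMAL1 complex, and USP2 is a deubiquitinase that acts on clock proteins. In adipose tissue REV-ERB-alpha is known for its role in adipocyte differentiation and as a repressor of Ucp1 in brown fat.

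The promoters of 8 members, all but Bhlhe40, were in the RefSeq table of GRCm38.p6, as 250 bases before and 50 after the transcription start. They were searched on both strands for 5 strings of letters: the E-box CACGTG, the E-prime box CACGTT, the REV-ERB and ROR core site AGGTCA, its longer form TAGGTCA, which contains the core site, and the D-box TTATGTAA. Stretches around the matches of 6 members are shown because clock factors act through such elements. Capitals mark the match, and AACGTG is the E-prime box read from the opposite strand. All 6 lie on the minus strand and are printed 5′ to 3′ along the gene.
Ciart: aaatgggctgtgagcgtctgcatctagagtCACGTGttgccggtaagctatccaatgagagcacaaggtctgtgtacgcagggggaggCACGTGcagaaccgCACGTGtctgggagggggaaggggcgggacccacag
Bhlhe41: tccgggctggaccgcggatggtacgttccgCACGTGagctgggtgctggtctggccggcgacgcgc
Cry1: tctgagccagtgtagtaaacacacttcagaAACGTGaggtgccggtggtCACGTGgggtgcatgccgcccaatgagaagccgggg
Cry2: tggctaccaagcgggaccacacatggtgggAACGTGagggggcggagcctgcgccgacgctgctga
Nr1d1: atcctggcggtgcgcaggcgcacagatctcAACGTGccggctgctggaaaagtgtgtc
Nr1d2: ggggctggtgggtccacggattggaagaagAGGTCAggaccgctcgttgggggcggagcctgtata

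The Ciart stretch is chr3:95882237-95882374 and holds 3 E-boxes, which begin 116, 58 and 44 bases before the RefSeq start. The Bhlhe41 stretch (chr6:145865538-145865603) holds 1 E-box, 153 bases before the start. In Cry1 (chr10:85185079-85185163) an E-prime box at 79 and an E-box at 60 bases before the start stand side by side. Cry2 (chr2:92434200-92434265) and Nr1d1 (chr11:98775378-98775435) each hold 1 E-prime box, at 166 and 28 bases before the start. Nr1d2 (chr14:18239148-18239213) holds 1 core site, 77 bases before the start. None of the 5 strings was in the windows of Rora and Usp2, and none of the 8 windows held TAGGTCA or the D-box. Among all 32851 promoters of the table, 7.15% held the E-box, 4.68% the E-prime box, 16.26% the core site, 2.61% its longer form and 0.94% the D-box. A match describes the letters of a window and was not measured as a binding site in these samples. The distances hold for the RefSeq start only. For Nr1d1 and Cry2 the stretch of bases checked after that start was not found whole in any GENCODE M21 transcript. Their GENCODE genes begin downstream of the printed stretches, at 98775333 and 92434043. The GENCODE genes of Bhlhe41 and Ciart begin inside the printed stretches, at 145865558 and 95882251. Rora and Usp2 have 6 and 9 annotated transcripts with more than 1 start, of which the table gives 1 promoter each.

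The deposited normalized counts summed to 16573561 and 17979641 in the Steap4AKO libraries and to between 18846321 and 20547925 in the Steap4f/f libraries. Steap4 itself had 8313 and 8014 in Steap4AKO, against 17018, 9417, 8310 and 8851 in Steap4f/f, so that the transcript level in whole tissue did not separate the genotypes. Steap4AKO replicate 2 stood apart, with the highest value of the 6 libraries for 27.0% of the 15006 genes tested and the lowest for 24.2%. In it the subcutaneous depot factor Tbx15 was at 1.4, against 316.1 in Steap4AKO replicate 3 and 660.8 to 1330 in Steap4f/f. Of the 7 depot factors listed, 5 were lowest in Steap4AKO replicate 2 and the other two, Irx1 and Sim1, were highest there. Irx1 had 265.4 and 125.0 in Steap4AKO, against 47.3 to 159.7 in Steap4f/f, and Sim1 had 39.8 and 0 in Steap4AKO, against 0 to 13.7 in Steap4f/f. Steap4f/f replicate 1 also stood somewhat apart, with the highest value for 21.3% of genes and the lowest for 20.9%, and it was the lowest library for 4 of the 9 members. The 3 epididymal markers in the table summed to 8373 in Steap4AKO replicate 2, 0 in replicate 3 and at most 3.34 in Steap4f/f. Adipoq, the adipocyte hormone gene, had 21862 and 36584 in Steap4AKO and between 31773 and 43018 in Steap4f/f. The mean level of 16 skeletal muscle markers relative to the Steap4f/f mean, called the muscle index below, was 0.444 and 4.65% in Steap4AKO, against 28.8, 121, 85.5 and 165% in Steap4f/f replicates 1, 2, 5 and 6.

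Across the 9 genes, the Steap4AKO libraries did not stand together. Steap4AKO replicate 3 had the highest value of all 6 libraries for 7 of the 9 members, where 14.8% of all genes tested were highest in that library, and the lowest for none, where 13.4% were. Steap4AKO replicate 2 lay inside the Steap4f/f range for 6 members and below it for Nr1d1, Rora and Bhlhe40. Over all genes tested, that library was the lowest of the 6 for 24.2% and the highest for 27.0%. No member had both Steap4AKO libraries above every Steap4f/f library, as 14.1% of genes did, or both below, as 14.4% did. None of the 9 passed the test over all genes (limma on log2(value + 1), Benjamini-Hochberg adjusted p of 0.30 to 0.759), where 0.473% of genes passed, and none had an unadjusted p under 0.05, where 18.1% of genes did. The mean log2 value was higher in Steap4AKO for 6 of the 9, where it was for 52.2% of genes, and the median log2 difference of the 9, Steap4AKO minus Steap4f/f, was 0.32, against 0.02 over all genes tested. In whole tissue, fewer cells of a type and less RNA per cell cannot be told apart.

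**Figure D1:**
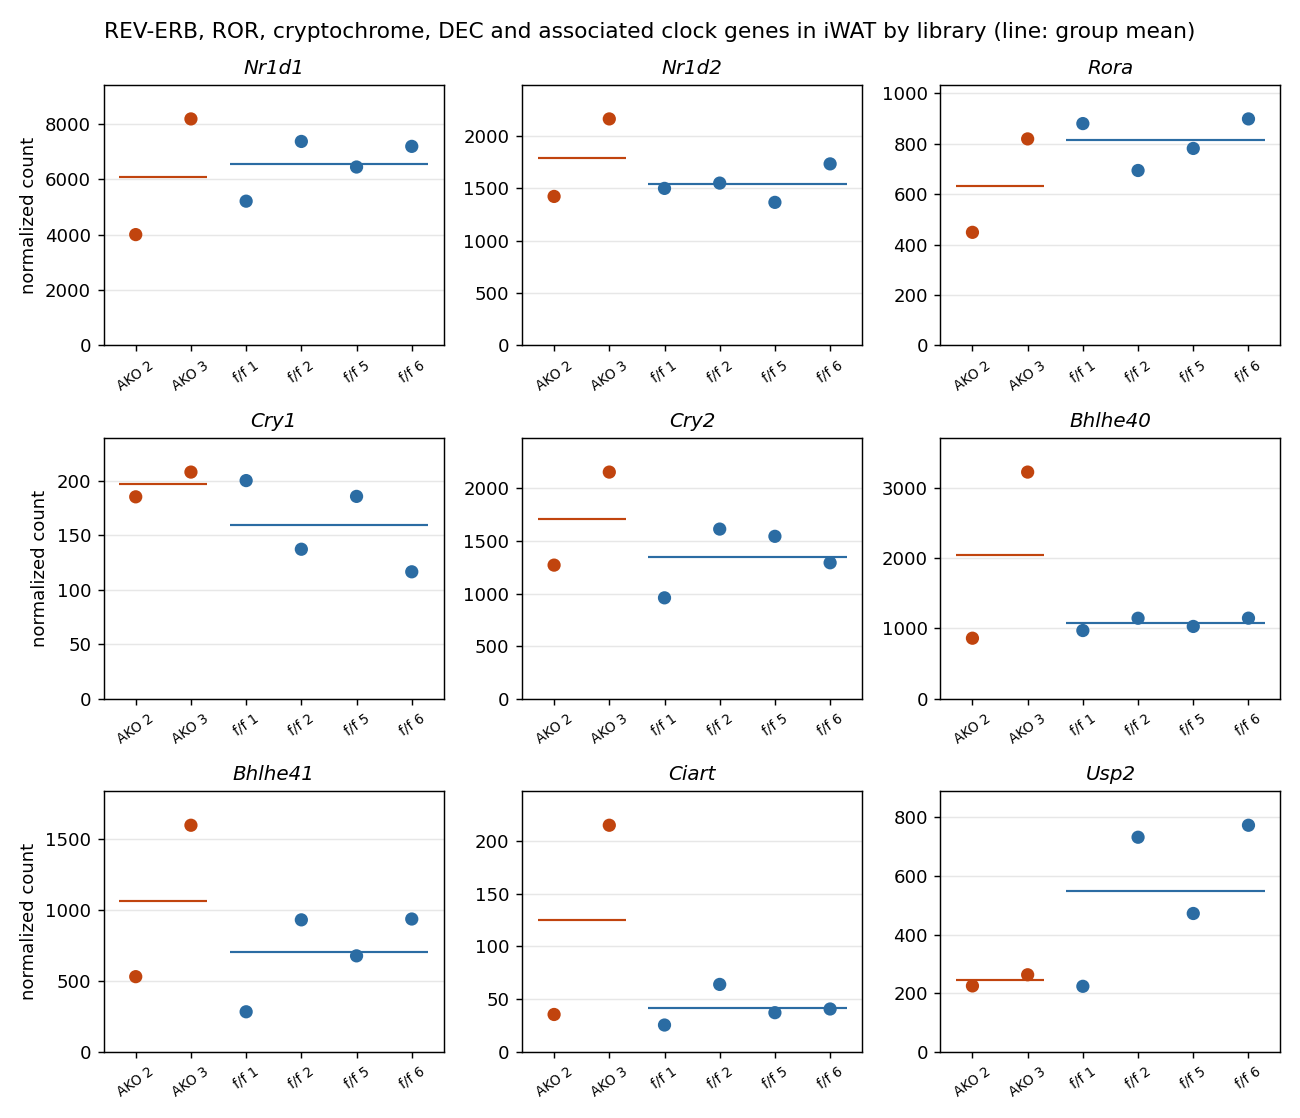
Normalized count (vertical axes, from 0) of each of the 9 genes in the 2 Steap4AKO libraries (orange) and the 4 Steap4f/f libraries (blue), with lines at the group means. Steap4AKO replicate 3 is the highest point in 7 panels, all but Rora and Usp2, and Steap4AKO replicate 2 is the lowest in 3.

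Of the REV-ERB genes, Nr1d1 (ENSMUSG00000020889, chromosome 11, 98767932 to 98775333 on GRCm38) had 3997 and 8166.5 in Steap4AKO, against 5202, 7355, 6432.5 and 7177 in Steap4f/f. The Steap4AKO libraries held both the lowest and the highest value of the 6, with the controls between them. The log2 difference was -0.18 (SE 0.28, 95% interval -0.84 to 0.47, limma adjusted p = 0.759). Nr1d1 shares 263 exonic bases with Thra on the opposite strand, and without known strandedness reads from the shared part cannot be told apart. Thra, a thyroid hormone receptor gene, had 1562 and 2817 in Steap4AKO and between 2256 and 3237 in Steap4f/f, and its part in the Nr1d1 values was not tested. Nr1d2 (ENSMUSG00000021775, chromosome 14, 18204054 to 18239127) had 1421 and 2161 in Steap4AKO, against 1498, 1549, 1365 and 1732 in Steap4f/f. Only Steap4AKO replicate 3 lay outside the control range, and the log2 difference was 0.20 (SE 0.19, 95% interval -0.25 to 0.64, limma adjusted p = 0.615).

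Rora (ENSMUSG00000032238, chromosome 9, 68653786 to 69388246) encodes the activator that shares response elements with the REV-ERBs. It had 448.9 and 819.6 in Steap4AKO, against 880.4, 694.3, 781.8 and 898.9 in Steap4f/f. Steap4AKO replicate 3 was inside the control range and replicate 2 below it, at 0.55 times the Steap4f/f mean. The log2 difference was -0.42 (SE 0.25, 95% interval -0.99 to 0.16, limma adjusted p = 0.408), and 0.02 without Steap4AKO replicate 2. Adipocyte markers were lowest in Steap4AKO replicate 2 for 8 of 10 genes, where 24.2% of all genes tested were. Lep, also on the adipocyte list, was instead highest in that library, at 55202, against 43434 in Steap4AKO replicate 3 and 8106 to 22141 in Steap4f/f. Macrophage markers were highest in replicate 2 for 6 of 8, where 27.0% of all genes tested were. The part of tissue makeup in the Rora value was not tested.

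The cryptochromes, which bind period proteins and inhibit CLOCK and BMAL1, differed less between the Steap4AKO libraries than the DEC genes did. Cry1 (ENSMUSG00000020038, chromosome 10, 85131700 to 85185064) had 185.2 and 207.9 in Steap4AKO, against 200.1, 137.1, 185.6 and 116.4 in Steap4f/f. Its highest value exceeded the highest control by less than the spread within Steap4f/f, and Steap4AKO replicate 2 lay inside the control range. The log2 difference was 0.33 (SE 0.29, 95% interval -0.33 to 0.99, limma adjusted p = 0.570). Cry2 (ENSMUSG00000068742, chromosome 2, 92403646 to 92434043) had 1270 and 2155 in Steap4AKO, against 958.8, 1613, 1544 and 1292 in Steap4f/f. Steap4AKO replicate 3 was above all controls at 1.59 times their mean and replicate 2 was among them. The log2 difference of Cry2 was 0.32 (SE 0.27, 95% interval -0.31 to 0.95, limma adjusted p = 0.561).

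The DEC genes and Ciart held the widest gap between the Steap4AKO libraries. Bhlhe40 (DEC1, ENSMUSG00000030103, chromosome 6, 108660629 to 108666925) had 861.6 and 3230 in Steap4AKO, against 971.1, 1146, 1029 and 1147 in Steap4f/f. The controls lay within 1.18-fold of each other, replicate 2 of Steap4AKO was below all of them and replicate 3 was at 3.01 times their mean. Bhlhe41 (DEC2, ENSMUSG00000030256, chromosome 6, 145858243 to 145865558) had 530.5 and 1599 in Steap4AKO, against 282.6, 931.5, 677.4 and 937.4 in Steap4f/f. Here the controls themselves spanned 3.32-fold, and only Steap4AKO replicate 3 was outside their range. Ciart (ENSMUSG00000038550, chromosome 3, 95878503 to 95882251), also called Chrono, had 35.4 and 214.8 in Steap4AKO, against 25.4, 63.9, 37.1 and 40.6 in Steap4f/f. Steap4AKO replicate 3 stood at 5.14 times the control mean and 6.06 times Steap4AKO replicate 2, which was inside the control range. The log2 differences were 0.64 for Bhlhe40 (SE 0.44, limma adjusted p = 0.470), 0.53 for Bhlhe41 (SE 0.57, limma adjusted p = 0.655) and 1.13 for Ciart (SE 0.71, limma adjusted p = 0.436). Their 95% intervals ran from -0.37 to 1.65, from -0.80 to 1.85 and from -0.53 to 2.78. Bhlhe41 shares 1280 exonic bases with Gm43909 on the opposite strand, which had 28.6 and 97.4 in Steap4AKO and 27.5 to 57.3 in Steap4f/f.

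Usp2 (ENSMUSG00000032010, chromosome 9, 44067021 to 44095627) was the member with the smallest p. It had 224.9 and 262.9 in Steap4AKO, against 223.5, 732.2, 472.0 and 773.1 in Steap4f/f. Both Steap4AKO libraries were low, but Steap4f/f replicate 1 was as low, so that the groups overlapped. The mean in Steap4AKO was 243.9 ± 26.9 (SD, n = 2), against 550.2 ± 255.4 (SD, n = 4) in Steap4f/f, a log2 difference of -1.02 (SE 0.47, 95% interval -2.11 to 0.07, limma adjusted p = 0.30). Without Steap4f/f replicate 1 the difference was -1.40 with an adjusted p of 0.0590 in limma. Usp2 gives rise to several isoforms, which the gene-level table does not separate.

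For single members an exact permutation test over the 15 ways to split the 6 libraries, two-sided, cannot give less than 0.0667. Its p was 0.200 for Rora, 0.267 for Cry1 and Usp2, 0.333 for Ciart and between 0.400 and 0.733 for the other 5 members.

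The direction of 7 members depended on which Steap4AKO library was kept. Without Steap4AKO replicate 3, 5 members that were higher had negative log2 differences, which were -0.11 for Nr1d2, -0.06 for Cry2, -0.31 for Bhlhe40, -0.27 for Bhlhe41 and -0.16 for Ciart. Without Steap4AKO replicate 2, those 5 were 0.50, 0.70, 1.59, 1.32 and 2.41, and Nr1d1 turned to 0.33 and Rora to 0.02. With 1 Steap4AKO library left, its spread is assumed to be that of the other group, and no member passed in limma either way (adjusted p of at least 0.131 without replicate 2 and of at least 0.0782 without replicate 3). Of the controls, leaving out Steap4f/f replicate 1 gave 0.13 for Bhlhe41, 0.16 for Cry2 and -0.29 for Nr1d1, with a median of 0.16 over the 9, and leaving out Steap4f/f replicate 6 gave 0.19 for Cry1. Cry1 and Usp2 kept their directions without either Steap4AKO library, at 0.41 and -0.91 without replicate 2 and at 0.25 and -1.13 without replicate 3.

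**Figure D2:**
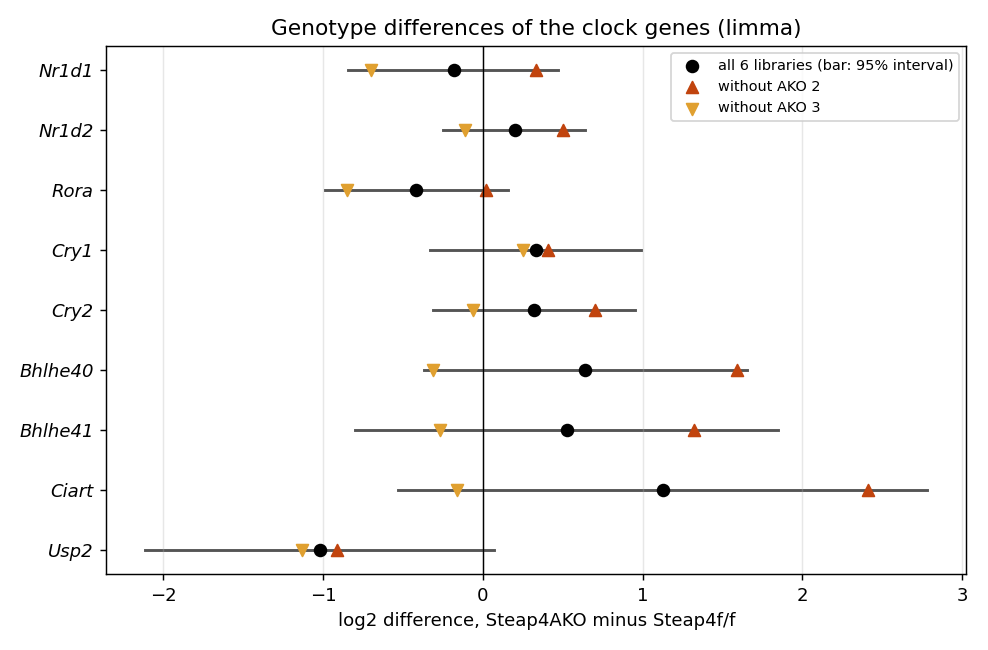
Log2 difference, Steap4AKO minus Steap4f/f (horizontal axis), for the 9 genes over all 6 libraries (black, with the 95% interval of limma), without Steap4AKO replicate 2 (orange triangles) and without Steap4AKO replicate 3 (yellow triangles). Every interval spans 0, and the triangles lie on opposite sides of 0 for 7 genes, with Ciart at 2.41 and -0.16.

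Among themselves, the members differed in how far Steap4AKO replicate 3 was from the rest. All 9 were higher in it than in Steap4AKO replicate 2, where 49.5% of all genes were, least for Cry1 (207.9 against 185.2) and most for Ciart (6.06-fold). The gap was at least 2-fold for 4 members, Nr1d1 (2.04-fold), Bhlhe41 (3.01-fold), Bhlhe40 (3.75-fold) and Ciart, where 5.98% of all genes reached it. Bhlhe40, Bhlhe41 and Ciart were more than 2-fold above the mean log2 value of Steap4f/f in Steap4AKO replicate 3, where 4.39% of genes were. These are single libraries, and the differences between them have no replicate check. The median of the 9 relative to the Steap4f/f mean stood at -0.27 in Steap4AKO replicate 2 and at 0.50 in Steap4AKO replicate 3, against -0.32, 0.18, -0.05 and 0.15 in Steap4f/f replicates 1, 2, 5 and 6. Over all genes tested the same medians lay between 0 and 0.02 in the 6 libraries.

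In the other clock genes, a list of 10 activators, period genes and PAR bZIP genes, Steap4AKO replicate 3 stood out as well. None of the 10 passed over all genes in limma, and 3 (Arntl, Nfil3 and Hlf) had an unadjusted p under 0.05, where 18.1% of all genes did. Means were higher in Steap4AKO for 7 and lower for 3, where 52.2% of all genes were higher. The median log2 difference of the 10 was 0.46, against 0.02 over all genes tested. Arntl, the target of the REV-ERB and ROR receptors, had 136.1 and 42.6 in Steap4AKO, against 205.6, 186.5, 193.8 and 134.4 in Steap4f/f (log2 difference -1.21, SE 0.45, limma adjusted p = 0.227). Steap4AKO replicate 3 was below every control and replicate 2 was among them. Dbp, an E-box driven output of the clock, had 1748 and 4557 in Steap4AKO, against 1451, 2488, 1908 and 1881 in Steap4f/f (log2 difference 0.57, SE 0.37, limma adjusted p = 0.439). Nfil3, a repressor that opposes DBP, had 112.8 and 124.1 in Steap4AKO, against 387.4, 262.4, 147.2 and 182.1 in Steap4f/f, and was lower in both (log2 difference -0.94, SE 0.38, limma adjusted p = 0.254). Steap4AKO replicate 3 was highest for 6 of the 10 genes, which were Per1, Per2, Per3, Dbp, Tef and Hlf, and lowest for Arntl, Clock and Npas2. Of all genes, 14.8% were highest and 13.4% lowest in that library. Steap4AKO replicate 2 was within the Steap4f/f range for 8 of the 10, above it for Clock and below it for Nfil3. Of all genes, 27.0% were highest and 24.2% lowest in replicate 2. The ratio of Nr1d1 to Arntl, the pair that normally peaks at opposite times, was 29.4 and 191.8 in Steap4AKO, against 25.3, 39.4, 33.2 and 53.4 in Steap4f/f. The ratio of Ciart to Arntl was 0.260 and 5.04 in Steap4AKO, against 0.124, 0.343, 0.192 and 0.302 in Steap4f/f. Both ratios were within the control range in Steap4AKO replicate 2 and several times above it in replicate 3.

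**Figure D3:**
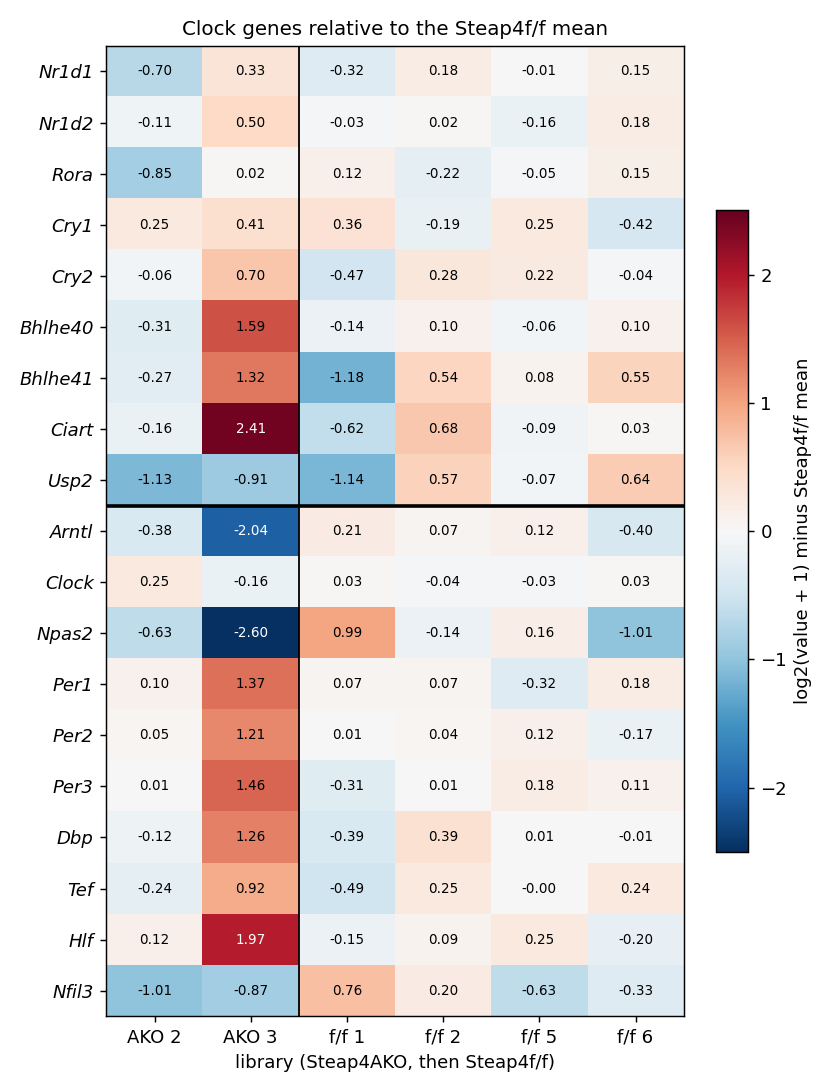
Log2(value + 1) of each gene minus its Steap4f/f mean (colour and printed number) in the 2 Steap4AKO and 4 Steap4f/f libraries, with the 9 genes above the black line and the 10 other clock genes under it. The column of Steap4AKO replicate 3 stands out, with Ciart at 2.41, Hlf at 1.97, Arntl at -2.04 and Npas2 at -2.60, while most genes of Steap4AKO replicate 2 lie near the controls.

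Several members also followed the muscle index within the controls. Ordered by that index, Steap4f/f replicates 1, 5, 2 and 6 had Usp2 at 223.5, 472.0, 732.2 and 773.1 and Bhlhe41 at 282.6, 677.4, 931.5 and 937.4. Bhlhe40 had the same order in a narrow range, so that 3 of 9 members did, where 6.69% of all genes were ordered in this way. Cry1 ran exactly the other way, with 200.1, 185.6, 137.1 and 116.4, as 5.27% of all genes did. In the Steap4AKO libraries, where the index was at most 4.65%, Usp2 was near the lowest control, whereas Bhlhe41 was at 530.5 and 1599. Bhlhe40 was at 861.6 and 3230 there, and Cry1 at 185.2 and 207.9. The order rests on the control libraries alone, and the part of muscle tissue in these values was not tested. All 16 muscle markers were lowest in Steap4AKO replicate 2, with Ckm, the muscle creatine kinase, at 397.1 and 1526 in Steap4AKO and between 15912 and 81342 in Steap4f/f. With the index as a linear covariate, chosen after seeing the data, the log2 difference of Usp2 was 0.32 (limma adjusted p = 0.660), that of Cry1 was -0.26 (limma adjusted p = 0.735) and that of Bhlhe41 was 1.83 (limma adjusted p = 0.299). With the log2 of the index as covariate these differences were 0.90 for Usp2, -0.15 for Cry1 and 3.87 for Bhlhe41 (limma adjusted p of 0.832, 0.968 and 0.317), and those of Bhlhe40 and Ciart were 2.89 and 4.69 (limma adjusted p = 0.650 each). The index correlated with genotype at -0.75 and its log2 at -0.91 over the 6 libraries, which widens the error of these differences. The slope on the log2 index also draws on the gap between the Steap4AKO libraries, at 0.444 and 4.65%. Both lie below every control (28.8% or more), so these differences are extrapolated and cannot be read as genotype effects freed of muscle. In limma 6 members had an unadjusted p under 0.05 with the log2 index, where 1105 of 15006 genes did. With the linear index 1 member did, where 2107 genes did, and no member passed after adjustment with either index.

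**Figure D4:**
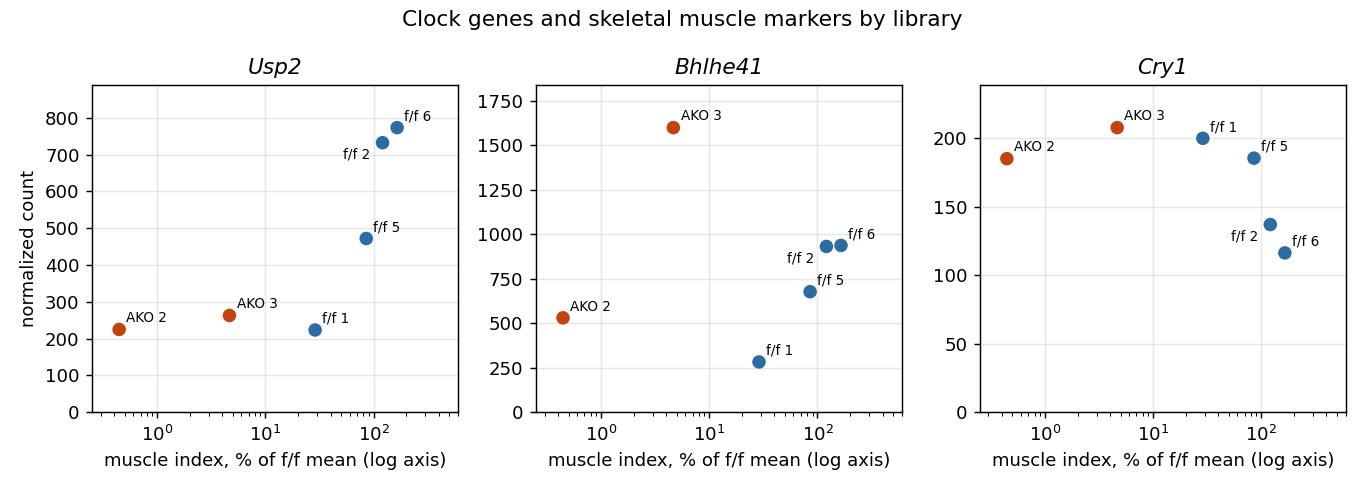
Normalized count of Usp2, Bhlhe41 and Cry1 (vertical axes, from 0) against the muscle index (horizontal log axis, percent of the Steap4f/f mean), 1 point per library, Steap4AKO in orange and Steap4f/f in blue. Among the controls Usp2 and Bhlhe41 go up with the index and Cry1 goes down, and Bhlhe41 in Steap4AKO replicate 3 (1599) lies above every control at an index of 4.65%.

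Levels between members are compared per kilobase of annotated exon (GENCODE M21). Nr1d1 was the most abundant, at 1976 ± 958.2 per kb in Steap4AKO (SD, n = 2) and 2126 ± 318 per kb in Steap4f/f (SD, n = 4). In Steap4f/f it was followed by Nr1d2 (283.9 ± 28.1 per kb), Bhlhe40 (228.2 ± 18.7 per kb), Cry2 (213.9 ± 46.8 per kb), Usp2 (114.2 ± 53.0 per kb) and Bhlhe41 (105.2 ± 45.8 per kb). Rora (62.3 ± 7.26 per kb), Cry1 (47.8 ± 11.8 per kb) and Ciart (18.5 ± 7.14 per kb) were the lowest. The control libraries of neighbours in this order overlapped from Bhlhe40 down to Cry1, while those of Nr1d1 and Nr1d2, of Nr1d2 and Bhlhe40, and of Cry1 and Ciart did not. The order of the Steap4AKO means was different in that Bhlhe40 (434.8 ± 355.9 per kb) came before Nr1d2 (331.1 ± 96.6 per kb). Bhlhe41 (158.5 ± 112.5 per kb), Cry1 (58.9 ± 4.80 per kb) and Ciart (55.3 ± 56.1 per kb) came before Usp2 (50.6 ± 5.58 per kb) in Steap4AKO. Rora (48.5 ± 20.1 per kb) was last there. Exon lengths pool all transcripts of a gene, so that Rora, with 13071 annotated exonic bases, may be set too low.

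Genes with the most similar values were sought among 12328 non-member genes with a mean of at least 50. The measure was the mean absolute difference of centred log2 values over the 6 libraries. It counts the size of a change as well as its shape, so that a distant gene may still have the same shape. Nearest to Nr1d1 were Hk2, a hexokinase (0.060), Akt2, an insulin-signalling kinase (0.080), and Slc25a23, a mitochondrial carrier (0.081). The nearest gene of the list of other clock genes was far down the order for Nr1d1 (Tef, at rank 1103) and for Cry1 (Clock, at rank 3970). Hk2 had 1707 and 3306 in Steap4AKO, against 2392, 3106, 2975 and 3062.5 in Steap4f/f. Nearest to Cry1 were Ccdc166 (0.036), Unc50 (0.064) and Zbtb24 (0.076). Nearest to Bhlhe40 were Vsig10l (0.085), the period gene Per3 (0.167) and Ift46 (0.168), and Vsig10l had 95.7 and 433.4 in Steap4AKO, against 129.5, 169.4, 145.4 and 153.1 in Steap4f/f. Among the members, the closest pairs by the same measure were Nr1d1 with Rora (0.21) and Nr1d1 with Nr1d2 (0.22), and the most distant were Cry1 with Usp2 and Ciart with Usp2 (0.95 each). With 6 libraries these distances only describe the samples at hand.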

How the data were processed

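The submitters' processing notes list STAR 2.7.0e and RSEM 1.3.3, then R 4.2.0 with DESeq2 1.12.4, and name GRCm38 and mm10 as builds, without saying what each did. Annotation and strandedness are not given in the sources used here. Each deposited value is a signal: a gene's count after scaling by the authors in DESeq2, going by the table's name. At the best step per library 49.3 to 58.3% of low values lay within 0.1 of a whole read. Whole reads could thus not be had, so count tests were left out and depth is unknown. Symbols came from GENCODE M21 (GRCm38) and matched 15133 of 15176 genes. Differences were tested two-sided with limma 3.58.1 (R 4.3.3) on log2(value + 1), with a variance trend, over all 6 libraries and 15006 genes with a mean of at least 10 (170 left out), with Benjamini-Hochberg adjustment over these genes and a threshold of 0.05. A pseudocount can understate differences of low genes. No gene had the same value above 0 in any pair of libraries. The fit was tested on simulated data that gave both groups the spread of Steap4f/f, which the Steap4AKO libraries need not have.

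The members and lists were chosen with earlier results of these data known. Named were all members, Arntl, Dbp and, from both lists of other clock genes, those with the smallest p (Timeless and Nfil3, with 1 more not reported here), the 3 genes most like Nr1d1, Cry1 and Bhlhe40, Steap4 and Ckm. Other genes were named after their values were seen. Alternatives were other pseudocounts, filters, scalings and variance settings, the muscle index as a covariate and each library left out. Figures were drawn with matplotlib 3.10.9.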

Additional observations from a re-analysis of the deposited data

How the results depend on the processing

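No member passed the threshold in the main analysis or in any of the 18 alternatives. The log2 difference of Nr1d1 was 0.00 when each library was scaled to the same total, a scaling that moved the median of all genes to 0.21. With the log2 muscle index as a covariate, which correlated with genotype at -0.91, the median of the members was 1.37, and Nr1d1 (1.37), Rora (0.41), Usp2 (0.90) and Cry1 (-0.15) changed sign. With the linear index Nr1d1 (0.19), Usp2 (0.32) and Cry1 (-0.26) did. Leaving out 1 library at a time gave medians from -0.27 (without Steap4AKO replicate 3) to 0.50. Nr1d1 ranged from -0.70 to 0.33, Nr1d2 from -0.11 to 0.50, Rora from -0.85 to 0.02, Cry1 from 0.19 to 0.45, Cry2 from -0.06 to 0.70, Bhlhe40 from -0.31 to 1.59, Bhlhe41 from -0.27 to 1.32, Ciart from -0.16 to 2.41 and Usp2 from -1.40 to -0.81. The count of genes past the threshold, 71, was 1 with a pseudocount of 0.5, with a mean of at least 50, with a robust variance prior and with either muscle covariate, 13 without a variance trend, 119 with array weights and 123 with a pseudocount of 5. It ranged from 1 to 821 when 1 library was left out. The causes were not tested. No paired analysis was possible because the groups share only replicate number 2. Depth is unknown, so that counting error of the lowest member, Ciart, could not be given.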

Other observations

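Genes that the members act with were measured as well. Of 8 ROR family, cryptochrome and REV-ERB partners none passed the test over all genes in limma. In it 1 (Timeless) had an unadjusted p under 0.05, where 18.1% of all genes did. Means were higher in Steap4AKO for 5 and lower for 3, where 52.2% of all genes were higher, and the median log2 difference was 0.05.

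Timeless, a replication fork gene named after its fly clock relative, had 312.3 and 273.9 in Steap4AKO, against 170.5, 200.3, 236.7 and 143.5 in Steap4f/f, and was above all controls in both (log2 difference 0.66, SE 0.25, limma adjusted p = 0.234). Fbxl21, a cryptochrome ubiquitin ligase gene, was also above all controls in both, with 20.8 and 31.5 in Steap4AKO, against 4.4, 10.4, 6.7 and 18.1 in Steap4f/f, and 14.1% of all genes were placed in this way. Hdac3 was below all controls in both, with 979.7 and 1189 in Steap4AKO, against 1289, 1255.5, 1224 and 1382.5 in Steap4f/f, as 14.4% of all genes were. Ncor1 and Hdac3, the corepressor and deacetylase through which REV-ERBs repress, had log2 differences of 0.00 and -0.25, with limma adjusted p of 0.993 and 0.376. Csnk1d and Csnk1e, casein kinases that phosphorylate period proteins, had log2 differences of 0.07 and 0.03. Ncor1, Csnk1d and Csnk1e lay within 1.74-fold among the Steap4f/f libraries, and the Steap4AKO libraries of Ncor1 and Csnk1e were 1.34-fold and 1.17-fold apart.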
